A study of Mus musculus with 30 samples.

Results

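Bst1, Dglucy, Lgals9, Glipr2, Bfsp2, Dpp4, Vkorc1, Klhl22 and Pdcl are 9 genes of a mouse B cell lymphoma line whose levels divided the lines that had been made resistant to paclitaxel. Bst1 and Dglucy were taken because the study names them as genes that differ between its paclitaxel resistance groups, and the other 7 were listed with them as genes of the same division, which Klhl22 and, in part, Vkorc1 did not follow. The genes were thus chosen by their measured levels in the Paclitaxel libraries, so the division described here is a description and carries no test. All 9 were rows of the deposited table of 55401 gene identifiers, and all 9 were among the 9445 genes that passed the filter on low counts.

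Every library came from the Eµ-Myc; p19ARF -/- line, in which a Myc transgene is driven in B lineage cells by the immunoglobulin heavy chain enhancer and the p19ARF tumour suppressor is missing, so controls and resistant lines carried both changes. The 17 Paclitaxel libraries were from lines put through repeated pulses of paclitaxel, a drug that stabilizes microtubules, each followed by recovery without drug. The 12 DMSO libraries were from lines put through the same cycles with the solvent, and 1 Parental library was from the starting line. Each library is 1 evolved line of a single starting line, so the spread between libraries is that between lines evolved in parallel and says nothing of other tumours. The labels give the treatment of a line but not its resistance group, so no library was put into a resistance group and no such groups were compared.

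The 9 genes have no single pathway in common. Bst1 encodes CD157, a cell surface enzyme that cleaves NAD and makes cyclic ADP-ribose. It is known as a bone marrow stromal antigen that promotes the growth of early B cells, and it lies beside its paralog Cd38. Dglucy encodes D-glutamate cyclase, a mitochondrial enzyme that turns D-glutamate into 5-oxoproline. Lgals9 encodes galectin-9, a lectin that binds glycans of the cell surface, and Dpp4 encodes CD26, a surface peptidase that removes dipeptides from the amino end of peptides. Glipr2 encodes a CAP domain protein of the Golgi membrane that is known as a negative regulator of autophagy. Bfsp2 encodes phakinin, an intermediate filament protein best known from the eye lens. Vkorc1 is the reductase that recycles vitamin K and the target of warfarin, Klhl22 is an adaptor that brings substrates to the ubiquitin ligase built on cullin-3, and Pdcl encodes a co-chaperone for the assembly of G protein beta and gamma subunits.

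Depth and labels bear on all that follows. The libraries held 1053948 to 6739131 counts in the DMSO group, 480919 to 6682169 in the Paclitaxel group and 1851837 in the Parental one. Levels are given as CPM, read counts scaled to the size of the library, with TMM factors (a trimmed mean of ratios between libraries). A count of 3, taken as the floor that a count of 0 allows, was worth 6.27 CPM in the smallest library, that labelled Pac C1, and 0.437 CPM in the largest, that labelled DMSO 11. The 10 B cell markers were all detected, at a summed level of 1747 to 5033 CPM in the treated and control libraries, while Cd3e, Cd4 and Trbc2 of the T cell list and Adgre1, S100a8 and S100a9 of the myeloid list were at 0 in every library. Other genes of those lists were counted, and in the Paclitaxel libraries Itgam reached 50.6 CPM, Cd68 reached 46.8, Lck reached 14.9 and Cd3g reached 13.02. The summed level in that group was 10.1 to 57.8 CPM for the myeloid list and 0 to 25.8 for the T cell list, and at most 2.37 for the stromal list. The labels of one pair of libraries were in doubt. Of 316 genes that were called between the groups when both were left out and that were also tested with all libraries, the library labelled DMSO 12 was nearer the Paclitaxel median at 69.6%, against 2.53 to 30.4% in the other 11 DMSO libraries. The library labelled Pac H9 was nearer the Paclitaxel median at 55.1%, against 65.8 to 91.1% in the other 16. The other libraries took part in choosing these genes and this pair did not, so the ranges favour the labels of the others and are no like-for-like comparison. Over all tested genes, the profile of the library labelled DMSO 12 correlated with the DMSO group at a mean r of 0.898. That is within the range of the other 11 (0.886 to 0.947), and its mean r with the Paclitaxel group was 0.877. Some Paclitaxel libraries lay in that range too, with a mean r with the DMSO group of 0.924 in Pac H4 and 0.894 in Pac H9. Others were lower, down to 0.811 in Pac F10. This correlation thus does not separate the groups and cannot decide the labels. Results are therefore given with the labels as deposited, without the libraries labelled DMSO 12 and Pac H9, and with moved labels. For the last, all labels from DMSO 12 on were moved by 1 library. The library labelled DMSO 12 then counts as Pac A6 and that labelled Pac H9 as the Parental line. The library labelled Parental then counts as DMSO 12 and enters the DMSO group.

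The promoters of the genes are printed first for the pair that was most alike over the Paclitaxel libraries, Dglucy and Bfsp2, and for Klhl22, whose pattern departed from the rest. Each window runs from 250 bases before to 50 bases after a RefSeq start site (GRCm38.p6), 5′ to 3′ on the strand of the gene, with every CG dinucleotide in capitals, as CpG density separates the main classes of mammalian promoters. The Bfsp2 window lies inside the interval that the gene annotation gives for Bfsp2.
Dglucy, chr12:100778807-100779106, plus strand: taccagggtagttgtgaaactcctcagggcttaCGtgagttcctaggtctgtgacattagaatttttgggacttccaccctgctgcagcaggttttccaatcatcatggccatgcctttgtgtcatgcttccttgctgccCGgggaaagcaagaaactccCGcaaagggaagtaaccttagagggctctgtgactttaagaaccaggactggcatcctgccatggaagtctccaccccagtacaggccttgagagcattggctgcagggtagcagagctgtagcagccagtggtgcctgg
Bfsp2, chr9:103449127-103449426, minus strand: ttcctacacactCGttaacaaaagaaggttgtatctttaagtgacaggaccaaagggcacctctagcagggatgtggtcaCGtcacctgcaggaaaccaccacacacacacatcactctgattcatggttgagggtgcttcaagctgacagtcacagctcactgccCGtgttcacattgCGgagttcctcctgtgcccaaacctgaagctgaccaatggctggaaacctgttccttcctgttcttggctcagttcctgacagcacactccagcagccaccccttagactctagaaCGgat
Klhl22, chr16:17759391-17759690, plus strand: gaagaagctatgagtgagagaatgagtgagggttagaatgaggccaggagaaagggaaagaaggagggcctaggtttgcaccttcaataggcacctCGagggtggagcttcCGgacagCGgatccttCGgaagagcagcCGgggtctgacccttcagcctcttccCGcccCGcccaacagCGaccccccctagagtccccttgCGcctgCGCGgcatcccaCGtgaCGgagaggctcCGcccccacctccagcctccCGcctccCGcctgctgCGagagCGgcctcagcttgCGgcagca
Dglucy held 3 CG dinucleotides and Bfsp2 held 5, below the median of 7 over 32851 promoter windows of the same length. The printed Klhl22 window held 19, and a window at another Klhl22 start site, not printed, held 17. Among the other members, Lgals9 and Dpp4 each held 4, Vkorc1 held 11, Pdcl held 16 and Glipr2 held 28, so genes of the same division had both CpG-poor and CpG-rich promoters. Bst1 was not in the promoter table. The palindrome CACGTG, which reads the same on both strands and is the core of the E-box bound by Myc, was in 7.15% of all windows and in 1 of the 8 members with a window, Klhl22. The members lie on 8 chromosomes, with only Dpp4 and Pdcl sharing one (chromosome 2).

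Bst1 (ENSMUSG00000029082.17, chr5:43818885-43843986 on GRCm38, plus strand) ranged 72.5-fold over the Paclitaxel libraries, in a graded series. It was at 18.5 to 65.4 CPM in 10 of the DMSO libraries, at 7.11 in DMSO 5 and at 4.04 in the library labelled DMSO 12, with a median of 29.8, and it was at 23.9 in the Parental library. The lowest Paclitaxel libraries were those labelled Pac E1 at 1.41 CPM, Pac D4 at 2.37, Pac C11 at 2.60, Pac C3 at 3.43 and Pac D7 at 6.79. Next came Pac D10 at 9.29, Pac F10 at 11.6, Pac B2 at 12.8 and Pac C1 at 14.6, all under the 10 DMSO libraries named first. The other 8 libraries were at 26.7 to 102 CPM, with the highest value in Pac A6. The value in Pac E1 rests on 6 counts, with an exact 95% Poisson interval of 0.517 to 3.07 CPM, and was 21.1-fold under the DMSO median. Such intervals cover counting error only. The groups overlapped, and both the lowest and the highest value of the series were in Paclitaxel libraries.

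Dglucy (ENSMUSG00000021185.16, chr12:100779057-100896981, plus strand) was even in the control group and wide in the treated one. It was at 11.6 to 34.8 CPM in the 12 DMSO libraries, with a median of 22.1 and the lowest value in the library labelled DMSO 12, and at 29.8 in the Parental library. The 6 lowest Paclitaxel libraries were Pac D4 at 0.861, Pac D10 at 1.03, Pac C11 at 1.60, Pac F10 at 1.76, Pac E1 at 1.88 and Pac D7 at 5.38. Pac C3 at 9.42 was also below all 12 DMSO libraries. So was Pac C1 at 6.27, but on 3 counts and with an exact 95% Poisson interval of 1.29 to 18.3 CPM that reaches into the DMSO range. Pac B2 at 13.5 was below all of them but the one labelled DMSO 12. The rest were at 21.3 to 43.2 CPM apart from Pac G9, which was at 101 and so 4.57-fold above the DMSO median. The standard deviation of the log2 level was 0.43 in the DMSO group and 1.95 in the Paclitaxel group, against medians over all tested genes of 0.46 and 0.68. Thus the Paclitaxel libraries lay on both sides of the DMSO range, 9 below and 4 above that of the other 11 DMSO libraries.

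**Figure D1:**
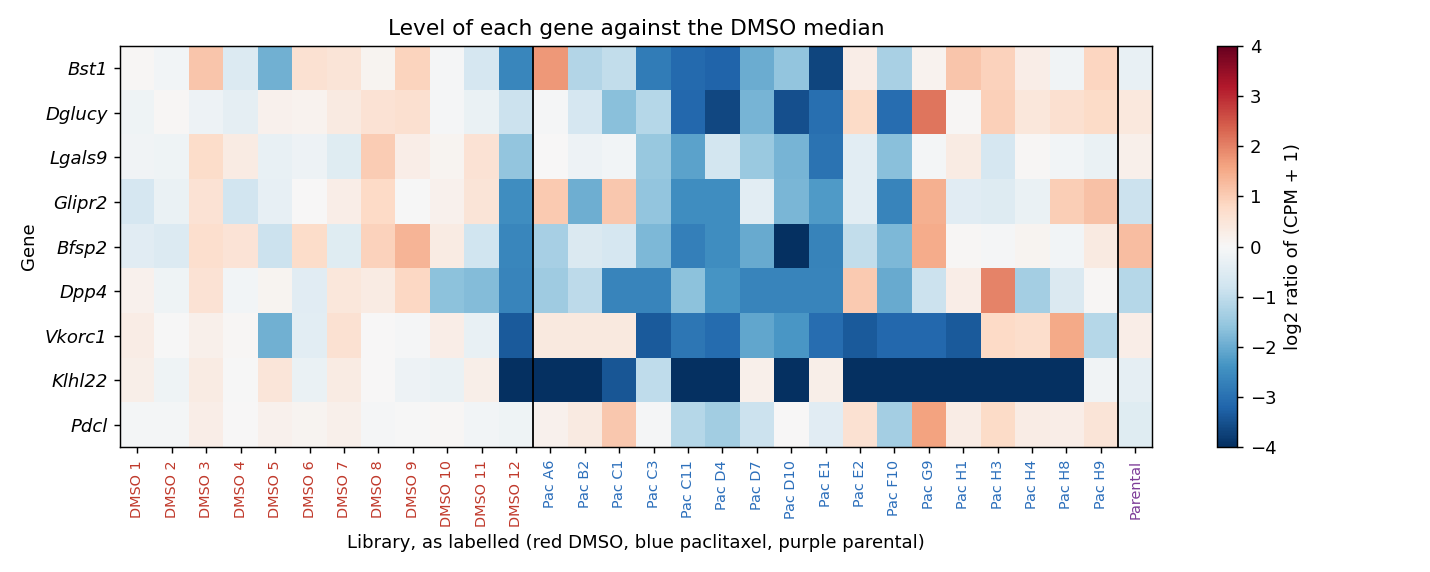
Log2 ratio of (CPM + 1) to the DMSO median (colour scale, limited to -4 and 4) for the 9 genes (rows) in the 30 libraries as labelled (columns). Blue prevails in the columns from the library labelled Pac C3 to Pac E1, in Pac F10 and in the library labelled DMSO 12. Breaks in this pattern include Klhl22 at Pac D7 and Pac E1 and Glipr2 at Pac D7. Pdcl also breaks it, at Pac C3, Pac D10 and the library labelled DMSO 12.

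Galectin-9 and CD26 were compared next, as proteins that act at the cell surface. Lgals9 (ENSMUSG00000001123.15, chr11:78962974-78984946, minus strand) was the most abundant member, at 488 to 1388 CPM in 11 DMSO libraries and 225 in the library labelled DMSO 12, with a median of 681. It was at 86.5 in Pac E1, 155 in Pac C11, 187 in Pac D10, 213 in Pac F10, 236 in Pac C3 and 241 in Pac D7, then at 410 in Pac D4 and 430 in Pac H3. The remaining 9 Paclitaxel libraries, at 512 to 852, lay within the range of the 11 DMSO libraries. The lowest value, in Pac E1, rested on 368 counts, and the values in Pac D10 and Pac C3 on 181 and 275.
Dpp4 (ENSMUSG00000035000.8, chr2:62330073-62412231, minus strand) was the least abundant, with a DMSO median of 5.18 CPM and a highest DMSO value of 9.93. It was low in some controls too, at 0.875 CPM on 6 counts in DMSO 11, the deepest library, and at 0.999 on 2 counts in DMSO 10. No Dpp4 count was seen in Pac C1, Pac C3, Pac D7, Pac D10 and Pac E1, nor in the library labelled DMSO 12. The floor was 6.27 CPM in Pac C1, above the DMSO median, so a difference there was not detectable at this depth, whereas it was 0.705 CPM in Pac E1 and 0.849 in Pac D7. Pac D4 had 1 count and Pac F10 had 3. The untreated Parental library also had 3 counts of Dpp4, worth 1.79 CPM there. Low values were also seen where Bst1 was high, as Pac A6, with the most Bst1 of all libraries, was at 1.29 CPM on 4 counts and Pac H4 was at 1.39 on 9 counts. Dpp4 was highest in Pac H3 at 23.6 CPM and in Pac E2 at 11.7, both above every DMSO library.

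Glipr2 and Bfsp2 each had values outside the DMSO range in libraries where Bst1 was not. Glipr2 (ENSMUSG00000028480.14, chr4:43957401-43979118, plus strand) was at 33.8 to 102 CPM in 11 DMSO libraries and 9.61 in the library labelled DMSO 12, with a median of 58.1. It was at 8.45 in Pac F10, 9.61 in Pac C11, 9.68 in Pac D4, 11.3 in Pac E1, 14.3 in Pac B2, 15.5 in Pac D10 and 18.8 in Pac C3. Pac D7, low for Bst1 and Dglucy, was at 43.3 CPM for Glipr2 and so inside the DMSO range. The Parental library was at 31.6 CPM for Glipr2, below the 11 DMSO libraries named first. There were 5 libraries above every DMSO library, from Pac H8 at 117 to Pac G9 at 157.
Bfsp2 (ENSMUSG00000032556.11, chr9:103424924-103480420, minus strand) was at 10.8 to 53.6 CPM in 11 DMSO libraries and 2.53 in the library labelled DMSO 12, with a median of 20.3. It was not counted in Pac D10, whose floor was 3.10 CPM, and was at 2.20 in Pac C11, 2.35 in Pac E1, 2.80 in Pac D4, 4.25 in Pac D7, 5.11 in Pac F10 and 5.14 in Pac C3. Pac A6 at 7.42 and Pac E2 at 9.87, in which Bst1 was at 102 and 36.3 CPM, were below those 11 DMSO libraries too. The highest value was again in Pac G9, at 59.2 CPM. An antisense gene, 5830418P13Rik, covers the 3′ part of Bfsp2 and had 335 counts over all 30 libraries against 1969 for Bfsp2, so the counts of the pair may be partly mixed.

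Vkorc1 and Klhl22 departed from the order of libraries that the other members shared. Vkorc1 (ENSMUSG00000096145.2, chr7:127893063-127895617, minus strand) was close to an on and off pattern. It was at 6.63 to 14.8 CPM in 10 DMSO libraries, at 1.71 in DMSO 5 and not counted in the library labelled DMSO 12. In the Paclitaxel group it was at 12.5 to 28.3 CPM in Pac A6, Pac B2, Pac C1, Pac H3, Pac H4 and Pac H8, and at 3.62 in Pac H9. The other 10 libraries were at 0 to 1.42 CPM, with at most 5 counts each. These 10 took in Pac E2, Pac G9 and Pac H1, in which Bst1 and Dglucy were at or above their DMSO medians. The annotated gene Gm21974 overlaps Vkorc1 on the same strand and had 0 counts in all libraries. How shared reads were assigned may bear on the level of Vkorc1, which was not tested.

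Klhl22 (ENSMUSG00000022750.18, chr16:17759618-17793382, plus strand) was low in the most libraries and did not follow the division of the others. It was at 26.5 to 46.1 CPM in 11 DMSO libraries, 25.05 in the Parental library and 1.01 in the library labelled DMSO 12. In 13 Paclitaxel libraries it had 0 to 5 counts, which is 0 to 2.09 CPM. Pac H4, the deepest Paclitaxel library, had 0 counts, which allows at most 0.464 CPM. It was much higher in Pac E1 at 38.5 CPM, Pac D7 at 37.4 and Pac H9 at 28.98, and was at 15.4 in Pac C3. Pac E1 and Pac D7 were among the libraries with the least Bst1 and Dglucy, so for these lines Klhl22 went the other way.
Pdcl (ENSMUSG00000009030.14, chr2:37350074-37359332, minus strand) was the most even gene in the controls, at 42.0 to 57.6 CPM in all 12 DMSO libraries, with the lowest value in the library labelled DMSO 12. It was at 17.4 CPM in Pac D4, 17.8 in Pac F10, 21.2 in Pac C11, 26.05 in Pac D7 and 34.3 in Pac E1, each of them below every DMSO library. Pac C3 at 46.2 and Pac D10 at 48.5 were inside the DMSO range. Another 8 Paclitaxel libraries were above every DMSO library, up to 148 CPM in Pac G9.

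**Figure D2:**
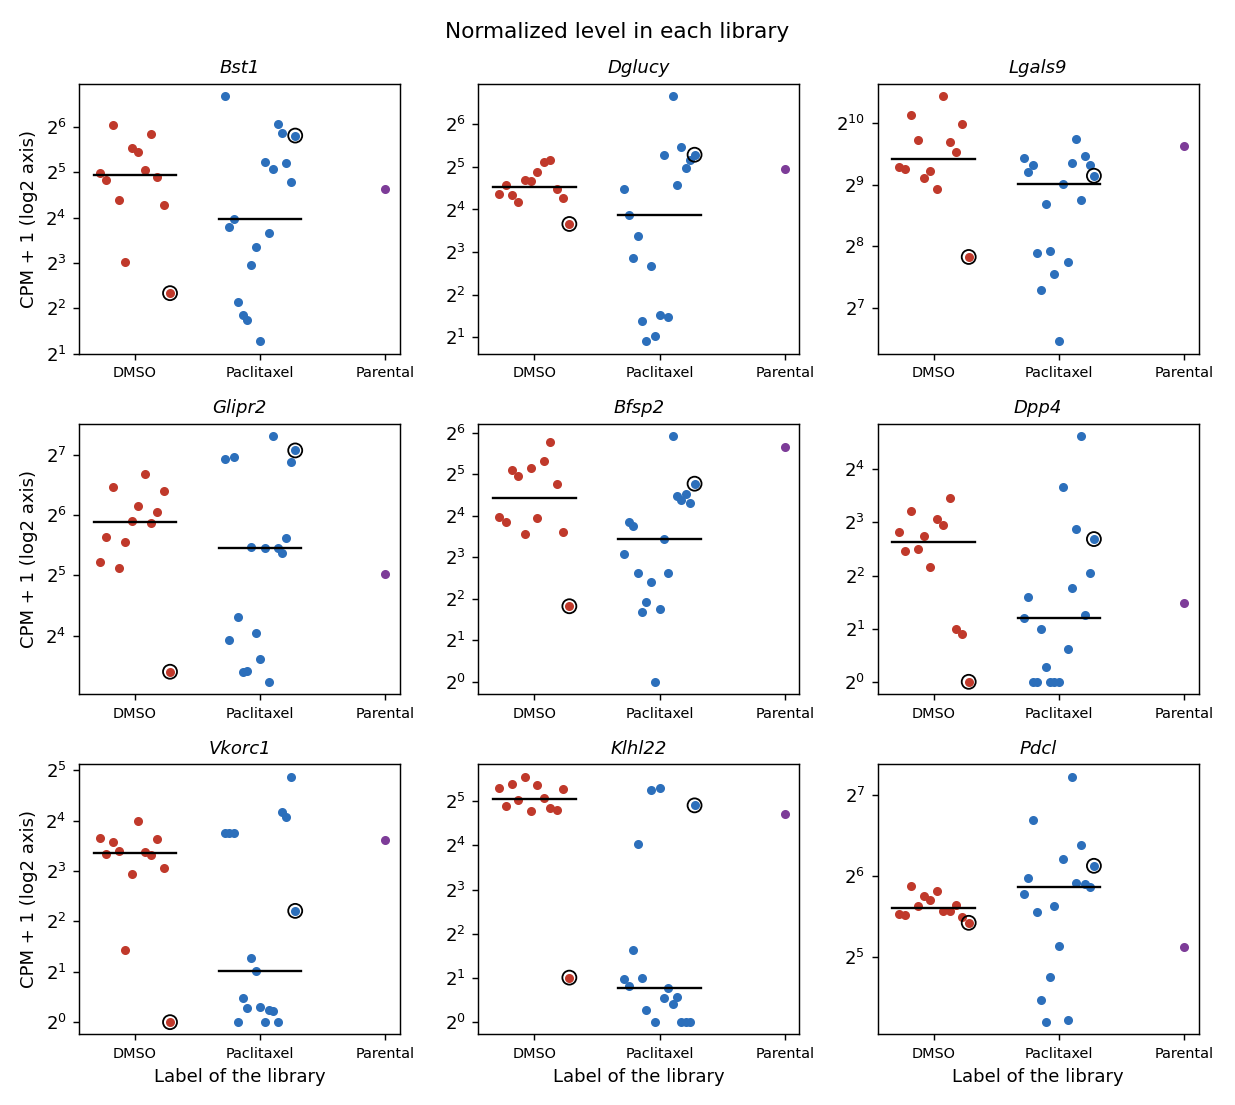
CPM + 1 on a log2 axis for each gene by the label of the library, with 1 point per library (12 DMSO, 17 Paclitaxel, 1 Parental), a bar at each group's median and a ring around the libraries labelled DMSO 12 and Pac H9. Dglucy and Pdcl were tight in DMSO and spread both ways in Paclitaxel, while Klhl22 was near 0 in 13 of 17 Paclitaxel libraries.

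Counting a level under 25% of the DMSO median as low gave 55 low values among the 153 values of 9 genes in 17 Paclitaxel libraries. Pac C11 was low for 8 of the 9 genes, Pac D4 and Pac E1 for 7, and Pac D7, Pac D10 and Pac F10 for 5. Pac C3 was low for 3, and no other Paclitaxel library for more than 2. The library labelled DMSO 12 was low for 6, DMSO 5 for 2, DMSO 10 and DMSO 11 for 1 and the other DMSO libraries and the Parental library for none. With Klhl22 left aside, 7 Paclitaxel libraries were low for 3 to 7 of the remaining 8 genes, and each of the other 10 for 0 or 1. This gap cannot be shown once depth is counted in. A value was then taken as low only where 3 counts are worth less than the limit. Only 7 of the 9 genes could be judged so in Pac C3 and in Pac D10. With Klhl22 left aside, Pac C3 was low for 1 gene and Pac D10 for 2, and the genes not judged there stay unknown. Pac C11, Pac D4, Pac D7, Pac E1 and Pac F10 were low for 4 to 7 of those 8 genes. The library labelled DMSO 12 was low for 4, and the number of low values fell from 55 to 50. If the labels were moved by 1 library, the 8 libraries low for 3 or more of those genes on the first count, DMSO 12 included, would be Pac G9, Pac E2, Pac E1, Pac D10, Pac D7, Pac D4, Pac C11 and Pac A6. The boundary cut through close values in places. Glipr2 in Pac B2 (14.3 CPM) fell just inside a limit of 14.5, and Bfsp2 in Pac F10 and Pac C3 fell just outside a limit of 5.09.

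By gene, low values numbered 13 for Klhl22, 10 for Vkorc1, 9 for Dpp4, 6 for Dglucy, 5 each for Bst1, Glipr2 and Bfsp2, 2 for Lgals9 and 0 for Pdcl. For Dpp4 the values in Pac C1, Pac C3 and Pac D10, and for Vkorc1 those in Pac C3 and Pac D10, lay in libraries too shallow for the limit, and without them the numbers were 6 for Dpp4 and 8 for Vkorc1. The share of all 9445 tested genes with at least as many low Paclitaxel libraries was 0.307% for the count of Klhl22, 0.667% for Vkorc1, 0.879% for Dpp4, 2.40% for Dglucy, 3.68% for Bst1 and 17.1% for Lgals9. These shares only place the genes, as they were picked for low values, and those of Vkorc1 and Dpp4 rest in part on the shallow libraries. Across the 17 libraries the rank correlation of a member with the total count lay between -0.24 and 0.10. In the 7 libraries low for 3 or more genes on the first count, 2.499 to 8.95% of all tested genes were low, against 2.13 to 15.7% in the other 10 Paclitaxel libraries.

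Rank correlations between members, given over the 17 Paclitaxel libraries as a description of points that share library and depth, put numbers on these patterns. The 28 pairs without Klhl22 had Spearman's rho of 0.16 to 0.89, with a median of 0.69 and the highest value for Dglucy with Bfsp2. The 8 pairs with Klhl22 had rho of -0.40 to 0.00, with a median of -0.21. The genes were chosen for being alike, so the first range is given by the choice, whereas Klhl22 stood outside it although it was on the same list.

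**Figure D3:**
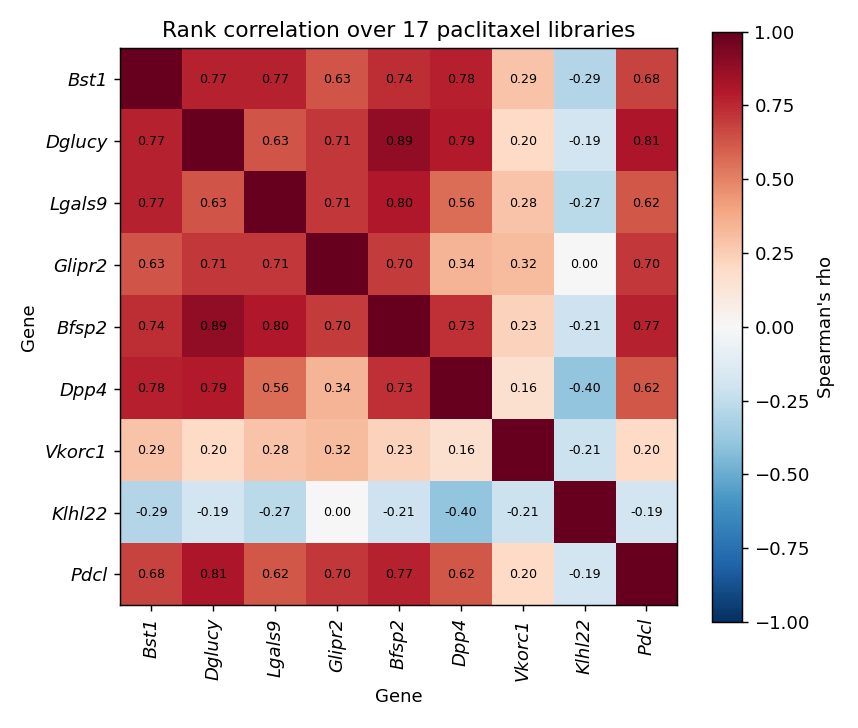
Spearman's rho (colour and number) for each pair of the 9 genes over the 17 Paclitaxel libraries. The row and column of Klhl22 hold values from -0.40 to 0.00, and the lowest values elsewhere are in those of Vkorc1.

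The mean level in 17 Paclitaxel against 12 DMSO libraries was compared with edgeR's quasi-likelihood test over all 9445 genes. At an adjusted p under 0.01 that fit called 208 genes, or 2.2% of those tested, and 0 of the 9 members. With 9 genes a count of 0 is near that share and is no result about them. The genes were also chosen for dividing the Paclitaxel libraries, which goes with a wide spread within that group, so a p above the threshold does not show that treatment left them unchanged. Klhl22 came nearest, with a log2 fold change of -2.10 (SE 0.697, edgeR adjusted p = 0.0587). SE here is a derived value, the absolute log2 fold change over the square root of the test's F statistic. Lgals9 was at -0.71 (SE 0.269, edgeR adjusted p = 0.0951) and Bfsp2 at -0.76 (SE 0.445, edgeR adjusted p = 0.286). The other 6 members had log2 fold changes of -0.48 to 0.23 with edgeR adjusted p of 0.569 to 0.965. Bst1 was at -0.16 (SE 0.480), which is less than the spread between libraries, and Dglucy at -0.04 (SE 0.483).
The sign for Dglucy and Glipr2 was not stable. It turned in 10 of 29 fits that each left out 1 library for Dglucy and in 3 of 29 for Glipr2. Without the library labelled Pac G9 Dglucy was at -0.43, without Pac H3 Dpp4 was at -1.07, and without Pac A6 Bst1 was at -0.42.

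The fit was repeated for both readings of the labels. Without the libraries labelled DMSO 12 and Pac H9, edgeR called 321 genes (3.36%, with 1.65% higher and 1.7% lower), Klhl22 was at -2.46 (edgeR adjusted p = 0.0220) and Lgals9 at -0.83 (edgeR adjusted p = 0.0483). With the labels moved by 1 library, 373 genes were called (3.95%), Klhl22 was at -2.48 (edgeR adjusted p = 0.0133), Lgals9 at -0.87 (edgeR adjusted p = 0.0261) and Bfsp2 at -1.11 (edgeR adjusted p = 0.0910). No member passed the threshold of 0.01 in any of these fits, nor in any of the 29 fits without 1 library, where the lowest edgeR adjusted p was 0.0169 for Klhl22.

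**Figure D4:**
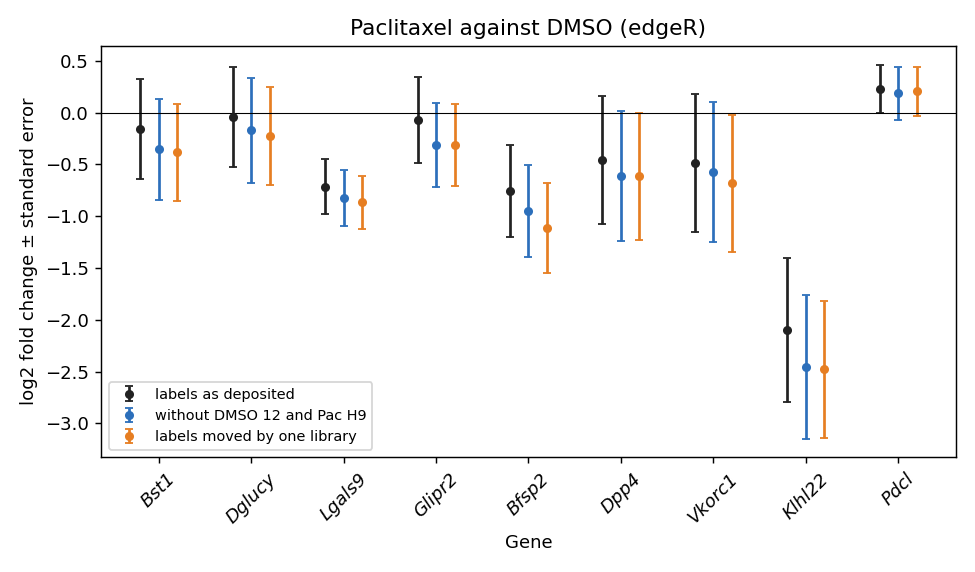
Log2 fold change of Paclitaxel against DMSO from edgeR (points) for each gene, with the standard error derived from its F statistic (bars). The fits are those with the labels as deposited, without the libraries labelled DMSO 12 and Pac H9, and with the labels moved by 1 library. Klhl22 lies at -2.10 to -2.48 and Lgals9 at -0.71 to -0.87, while Bst1, Dglucy and Glipr2 lie at -0.16, -0.04 and -0.07 with the labels as deposited and at -0.38, -0.23 and -0.31 with the labels moved.

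Chromosomal neighbours were examined next, as position was not used to choose the genes. The 2 nearest tested protein-coding genes on each side gave 36 neighbours, the farthest of them Ttc21b at 3772 kb from Dpp4. Of these, 25 were low in no Paclitaxel library, none was low in 5 or more, beside 3.68% of all tested genes, and the highest number was 4. Their rho with the member they flank ran from -0.57 to 0.59 with a median of -0.08. None was called by edgeR at the threshold of 0.01, beside 2.2% of all tested genes. With so few genes, a count of 0 is near these shares and no result about the neighbours.
Cd38, the paralog of Bst1 with the same enzyme activity, lies 24.6 kb from it and was far more abundant, at 137 to 330 CPM in DMSO libraries and 24.8 to 310 in Paclitaxel ones. Its rho with Bst1 was 0.34, and its log2 fold change was -0.62 (SE 0.216, edgeR adjusted p = 0.0736, or 0.0104 with moved labels). Fbxl5 overlaps the 5′ end of Bst1 on the other strand and was low in no Paclitaxel library, with a rho of -0.13.
Tmem108, which lies 2.53 kb from Bfsp2, had the highest rho of all neighbours. It was at 24.5 to 108 CPM in DMSO libraries and 7.53 to 55.7 in Paclitaxel ones, with a log2 fold change of -1.06 (SE 0.263, edgeR adjusted p = 0.0123, or 0.00253 with moved labels). Hint2 lies 301 kb from Glipr2. It had a DMSO median of 0.0969 CPM and a Paclitaxel median of 8.96, a log2 fold change of 2.80 (SE 0.712, edgeR adjusted p = 0.0137, or 0.00894 with moved labels) and a rho with Glipr2 of 0.00.

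**Figure D5:**
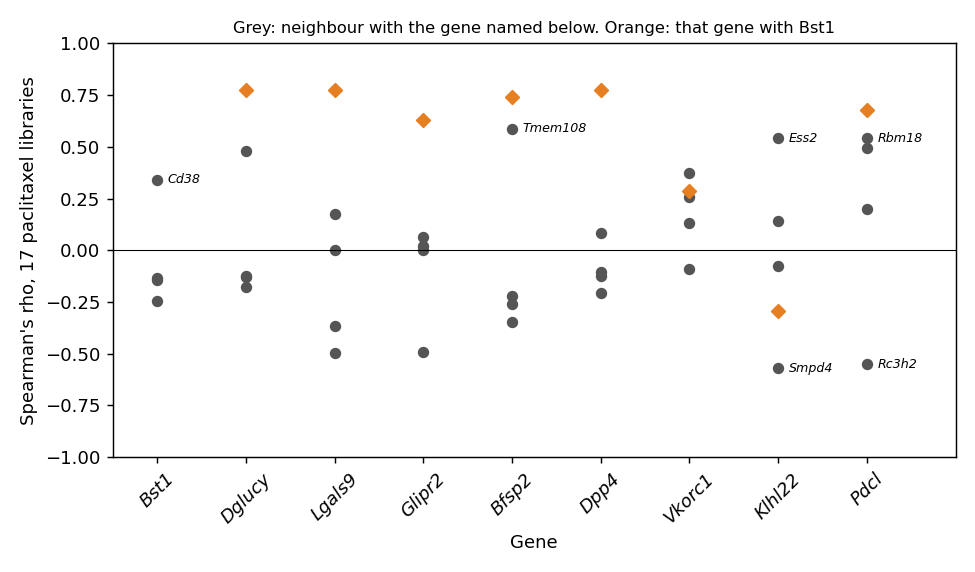
Spearman's rho over the 17 Paclitaxel libraries between each gene and its 4 nearest tested protein-coding neighbours (grey) and between that gene and Bst1 (orange). Neighbours scatter from -0.57 to 0.59, with Tmem108 beside Bfsp2 highest.

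The 3 tested genes whose ranks over the 17 Paclitaxel libraries were most like a member were ranked as a description. For Bst1 these were Lig1, a DNA ligase of replication, with rho of 0.81, Ptpn6, a phosphatase that dampens B cell receptor signals, with 0.80, and Pidd1, a death domain protein, with 0.79. Lig1, at 90.9 to 278 CPM, and Ptpn6, at 57.0 to 439, were low in no Paclitaxel library and Pidd1 was low in 1, so they shared the order of the libraries with Bst1 and not the size of its range. For Dglucy they were Bfsp2 with 0.89, Man2b1, a lysosomal mannosidase, with 0.87, and the predicted gene Gm36120 with 0.85.
Lgals9 was most like Cdkn1a, the cell cycle inhibitor p21, with rho of 0.81. Cdkn1a was at 0.856 to 245 CPM over the Paclitaxel libraries and was low in 6 of them, against a DMSO median of 10.7. Bfsp2 shared Hmcn2 with Lgals9, with rho of 0.87 and 0.80, and was also like Cd37, a B cell tetraspanin, with 0.85.
Among the genes most like Dpp4 were Kctd14 and Ncf4, each with rho of 0.88. Glipr2 was most like Nfu1 with 0.85, Exoc4 with 0.81 and Ghitm with 0.80, and Pdcl was most like Eed, Zfp788 and Ass1 with 0.85 to 0.86.
For Klhl22 the small nucleolar RNA Snord35a had rho of 0.91, Hsd17b13 had 0.84 and Lpar6 had 0.80. Hsd17b13, an enzyme of lipid droplets, was low in 8 Paclitaxel libraries and not counted in at least 1. The best values for Vkorc1 were lower, at 0.69 for Gm15349, 0.67 for Smyd5 and 0.66 for Aamdc.

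Among 9 lists of genes around the members, 2 held a gene called between the groups. Of 31 genes of NAD and cyclic ADP-ribose metabolism, 23 were tested and 0 were called, beside 0.995% of all tested genes called higher and 1.21% called lower. The same count of 0 held for 13 tested genes of D-amino acid and 5-oxoproline metabolism, 9 galectins and galectin-9 partners, 1 CAP superfamily gene, 5 genes of the vitamin K cycle, 14 cullin-3 adaptors and substrates and 16 genes of G beta gamma folding. With moved labels 1 galectin list gene was called higher, beside 1.85% of all tested genes higher and 2.1% lower. The median log2 fold changes of these 7 lists were 0.01 to 0.57, beside 0.07 over all tested genes.
Among 6 tested intermediate filament genes only Nes, nestin, was called. It rose by 3.61 on the log2 scale (SE 0.751, edgeR adjusted p = 0.00293), from a DMSO median of 0.320 CPM to a Paclitaxel median of 5.43. Among 11 tested dipeptidyl peptidases and partners, Dpp3, a cytosolic peptidase, was lower by a log2 fold change of -0.86 (SE 0.143, edgeR adjusted p = 0.000336), at 37.4 to 86.2 CPM in DMSO libraries and 14.7 to 52.2 in Paclitaxel ones. Igf2r, the mannose 6-phosphate receptor, was higher by 4.88 (SE 0.658, edgeR adjusted p = 2.41e-05), with a DMSO median of 0.0936 CPM and a Paclitaxel median of 4.72. With moved labels Igf2r did not pass the filter on low counts and was not tested, and an antisense gene, Airn, overlaps it.

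Marker lists of cell types were set beside Bst1. Over the Paclitaxel libraries the rho with Bst1 was 0.72 for the summed erythroid list and 0.39 for the B cell list. It was 0.38 for the myeloid list, -0.20 for the T cell list and -0.58 for the stromal list. The stromal sum was at most 2.37 CPM in these libraries, and 2 of its 10 genes had over 3 counts in any library. Its rho therefore ranks values near the floor. The summed erythroid list was at 7.00 to 72.5 CPM in DMSO libraries and 4.46 to 251 in Paclitaxel ones. Nearly all of it was Hbb-bt, a beta globin gene. Hba-a2 was at 0 in every library, Hba-a1 reached at most 0.322 CPM, and 2 of the 10 list genes had over 3 counts in any library. The part of these lists in the levels of Bst1 was not tested.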

How the data were processed

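Whole-transcriptome 3′ tag libraries of 30 lines were analysed. The authors aligned reads to GRCm38 with STAR 2.5.1b, per the submitters' processing notes, and deposited whole-number counts per gene from that aligner, not normalized. The library primers carried molecular identifiers, and whether the counts were collapsed on them is not given in the sources used here. Strand use in counting and the subpool of each library (2 subpools of 15) are not given either. Groups came from the treatment labels. Numbers of Paclitaxel libraries within their group follow accession order.

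Counts as deposited were tested with edgeR 4.0.16 (R 4.3.3; TMM, filterByExpr, glmQLFit and glmQLFTest), 17 Paclitaxel against 12 DMSO libraries with the Parental library outside the fit, with Benjamini-Hochberg adjustment over 9445 genes and a threshold of 0.01. On simulated counts for 9445 genes, the test found 177 of the 184 genes that had been given a 4-fold change and passed the filter, and wrongly called 2 of 9078 others. Gene names and positions came from GENCODE on GRCm38, which named 55141 of 55401 identifiers, and 8 of 9 members matched a RefSeq promoter window.

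The members and lists were chosen with earlier results of these data known. Named genes were the members, list genes past the threshold, 2 neighbours on each side and the 3 genes of highest rho per member, of which 1 is not reported here. The share of called genes nearer the Paclitaxel median, used to check labels, was chosen after seeing the data. Alternatives were DESeq2 1.42.0, the likelihood ratio test of edgeR, other filters, RLE scaling, thinning to 480919 counts, a depth covariate, the Parental library in the fit, moved labels, other limits for low values, and leaving out each library. Lines came from 1 starting line, and p-values measure only the spread between these lines.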

Additional observations from a re-analysis of the deposited data

How the results depend on the processing

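Against 208 genes called between the treatments with the settings used, the number was 448 with the edgeR likelihood ratio test, 493 with DESeq2, 331 with the Parental library in the fit, 321 without the libraries labelled DMSO 12 and Pac H9, 373 with the labels moved by 1 library, 105 after thinning to the smallest total and 714 at an adjusted p under 0.05. Leaving out 1 library gave 139 to 299. At an unadjusted p under 0.05 the fit had 2368 genes. Thinning left Bfsp2, Dpp4 and Vkorc1 under the filter, and there Glipr2 turned to 0.048 on the log2 scale. Leaving out 1 library gave -0.43 to 0.042 for Dglucy and -0.26 to 0.020 for Glipr2. The cause was not tested. Low values numbered 41 to 79 of 153 over limits of 12.5 to 50% of the DMSO median, 64 with moved labels, and 50 where values in libraries too shallow for the limit were not counted, a setting chosen after seeing the data. Of the 3 genes most like Bst1, 1 was shared when Pearson's r was used and 1 without the library labelled Pac H9. No paired analysis was possible because the Paclitaxel labels carry no replicate number that pairs them with DMSO libraries. Depth limits Dpp4 and Vkorc1 most, as 3 counts were worth 6.27 CPM in the smallest library.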
